A study of Mus musculus with 4 samples.

Results

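The gated S100g cells of the mouse kidney were chosen by a rule on the unique molecular identifier (UMI) counts of 6 genes, and they numbered 301 of 22838 cells that passed the quality filter. A cell was taken when it held at least 500 detected genes and at most 20% mitochondrial UMIs, at least 5 UMIs of S100g, and at least 1 UMI of Scnn1b or Calb1. It also had at most 1 UMI of Slc12a3, at most 2 of Aqp2 and at most 1 of Atp6v1g3. The label under which they were chosen is connecting tubule cells, the segment between the distal convoluted tubule and the collecting duct. The rule read measured counts, so the levels of its 6 genes are given below as a description and with no test.

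The series holds 4 wild type libraries made with the Chromium 3′ v2 chemistry, 1 for each group. The transplant is an embryonic kidney of the strain C57BL/6N taken at E12.5 and kept for 12 days in a host mouse's epididymal fat. The kidneys at E15.5 and at P0, the day of birth, were from ICR mice, and the kidney at E17.5 was from C57BL/6 mice. The labels give the host as C57BL/6N in one place and as an immunodeficient NOD mouse in another, and they do not say how many animals were pooled or what sex they were. Age, strain, grafting and library preparation therefore cannot be told apart between libraries, and no difference between libraries was tested.

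In the connecting tubule the epithelial sodium channel and its control by the hormone aldosterone are joined to active calcium reabsorption. Calbindins such as S100g (calbindin-D9k) and Calb1 (calbindin-D28k) carry calcium through the cell, from the apical channel Trpv5 to the basolateral pumps and exchangers. Hsd11b2 inactivates glucocorticoids and so keeps the mineralocorticoid receptor for aldosterone. In the embryo the segment forms where the distal nephron joins the ureteric bud, whose tips and stalks become the collecting duct.

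The 4 libraries held 57855356 UMIs in 7670 barcodes in the transplant, 92387054 in 4158 at E15.5, 42430540 in 5551 at E17.5 and 99068204 in 10810 at P0. The gated cells made up 157 of 6618 filtered cells in the transplant, a share of 2.37% (exact Clopper-Pearson 95% interval 2.02 to 2.77). The share was 0.926% (0.638 to 1.30) at E15.5, with 33 of 3565 cells. It was 0.570% (0.373 to 0.834) at E17.5, with 26 of 4563 cells, and 1.05% (0.840 to 1.30) at P0, with 85 of 8092 cells. These and all intervals below cover counting error only. The median gated cell held 7904 UMIs in the transplant, 29603 UMIs at E15.5, 8744 UMIs at E17.5 and 12082 UMIs at P0, so that 5 UMIs of S100g stood for 633 UMIs per 1000000 (CPM) in the transplant, 169 CPM at E15.5, 572 CPM at E17.5 and 414 CPM at P0. The same rule therefore admitted cells of lower S100g level at E15.5, and it removed cells there at lower levels of Aqp2 and Slc12a3. Choosing cells after thinning every cell to 3000 UMIs gave shares of 2.97% in the transplant, 0.381% of cells at E15.5, 0.671% of cells at E17.5 and 1.18% of cells at P0. Of the cells chosen in that way 84 of 141 in the transplant, 6 of 13 at E15.5, 14 of 28 at E17.5 and 36 of 87 at P0 were also members by the rule. Of the cells thinning added, 43 of 57 in the transplant, 7 of 7 at E15.5, 11 of 14 at E17.5 and 48 of 51 at P0 held more than 2 Aqp2 UMIs before thinning.

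S100g (X:162961992-162964599, minus strand, GRCm38) was found well beyond the gate. At least 5 UMIs of it were counted in 827 cells of the transplant, 87 cells at E15.5, 157 cells at E17.5 and 408 cells at P0. The limits were applied in turn, and each cell was counted at the first limit that removed it. The limit on Slc12a3 came first and removed 111 of these in the transplant, 8 cells at E15.5, 19 cells at E17.5 and 26 cells at P0. The limit on Aqp2 then removed 175, 18, 64 and 123 in that order of libraries, and the limit on Atp6v1g3 73, 1, 7 and 26. Of the cells left, the need for Scnn1b or Calb1 removed 311, 27, 41 and 148. The gated cells held 14.9% of all S100g UMIs of the filtered transplant cells, 12.3% of them at E15.5, 7.79% of them at E17.5 and 17.3% of them at P0. S100g UMIs were also seen in endothelial cells, which should lack the gene. At least 1 was held by 61.8% of endothelial cells in the transplant, against 26% of them at E15.5, 23% of them at E17.5 and 21.1% of them at P0. Whether these UMIs were free RNA or came from mixed droplets was not tested. A count of 5 or more was reached by 0.808% of those endothelial cells in the transplant and by 0.242% at P0, and by none of 173 at E15.5 and none of 409 at E17.5. In cells thinned to 3000 UMIs, S100g was seen in 94.4% of gated cells and 32.6% of endothelial cells in the transplant. Median depths before thinning were 7904 and 6512 UMIs. The share in gated cells follows from the rule, which required at least 5 UMIs of S100g, and is given as a description only.

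The levels of the rule's own positive genes differed between libraries in kind as well as in amount. A level here is the gene's UMIs summed over the gated cells of a library, per 1000000 UMIs of those cells; since the 3′ method counts 1 end of each molecule, levels are comparable between genes without a correction for length. S100g stood at 7801 CPM in the transplant, 556 CPM at E15.5, 4510 CPM at E17.5 and 3111 CPM at P0. Scnn1b, the beta subunit of the epithelial sodium channel, stood at 537 CPM in the transplant, 27.3 CPM at E15.5, 89.2 CPM at E17.5 and 98.6 CPM at P0. Calb1 stood at 64.5 CPM in the transplant, 117 at E15.5, 865 at E17.5, where 1 cell held 52.8% of the UMIs, and 301 at P0. Cells that passed on Scnn1b alone were 84.1% of the transplant members, and cells that passed on Calb1 alone were 5.73%. At E15.5 the shares were 15.2% on Scnn1b alone and 48.5% on Calb1 alone, at E17.5 they were 19.2% and 50%, and at P0 they were 27.1% and 36.5%. The transplant gate was thus mostly an S100g and Scnn1b gate, and the fetal gate mostly took Calb1.

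At the edge of the S100g threshold, 23 transplant cells held 5 or 6 UMIs and were members, and 50 cells that met every other limit held 3 or 4 and were not. There were 6 inside and 16 outside at E15.5, 2 and 9 at E17.5, and 12 and 12 at P0. Tmem52b, a membrane protein gene that marks the distal convoluted and connecting tubule, had 460 CPM in the transplant cells just inside and 126 CPM in those just outside. It had 412 and 82.6 CPM at E15.5, 134 and 15.2 CPM at E17.5, and 140 and 14.0 CPM at P0. Hsd11b2 had 212 CPM inside and 54.7 CPM outside in the transplant, 66.9 and 20.3 CPM at E17.5 and 48.4 and 14.0 CPM at P0, but 3.12 CPM inside and 8.26 CPM outside at E15.5. The cells inside were shallower and higher in S100g level than those outside in every library. In the transplant the median cell held 2324 UMIs inside and 6260 outside, and S100g stood at 763 and 342 CPM. The values inside rest on 6 cells at E15.5 and 2 at E17.5. What part depth has in these differences was not tested.

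The label was then set against genes that the rule did not read. The sum of 10 other connecting tubule genes (Trpv5, Slc8a1, Atp2b1, Hsd11b2, Scnn1g, Klk1, Tmem52b, Kl, Trpm6 and Vdr) was 3072 CPM in the gated cells of the transplant, 846 CPM at E15.5, 789 CPM at E17.5 and 589 CPM at P0. In endothelial cells of the same libraries the sum was 210, 155, 201 and 257 CPM. In cells gated on Slc12a3, the thiazide-sensitive sodium chloride cotransporter of the distal convoluted tubule, it was higher still, at 3265 CPM in the transplant, 2090 CPM at E15.5, 1701 CPM at E17.5 and 1019 CPM at P0. In cells gated on Aqp2, the vasopressin-regulated water channel of principal cells, it was 1806, 670, 606 and 506 CPM. Klk1 was at 0 in the gated cells at E15.5 and at P0, and Trpm6 was at 0 at E15.5. On the 10 genes the gated cells stood above endothelium and Aqp2 cells and below Slc12a3 cells in all 4 libraries. The E15.5 comparison with Slc12a3 cells rests on only 7 of those cells. Given this order, the cells are called gated S100g cells here rather than by a segment.

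Other cell types' markers were present to different degrees. In the gated cells the 11 distal convoluted tubule markers summed to 1645 CPM in the transplant, 657 CPM at E15.5, 463 CPM at E17.5 and 355 CPM at P0, against 3261, 2666, 2243 and 1591 CPM in Slc12a3 cells. The 11 principal cell markers summed to 2496 CPM in the transplant, 599 CPM at E15.5, 724 CPM at E17.5 and 684 CPM at P0, against 6149, 2681, 3284 and 2710 CPM in Aqp2 cells. The gated cells lay below Slc12a3 cells and Aqp2 cells on those cells' own segment markers in all 4 libraries. The gates set part of this order in advance. They capped Slc12a3 and Aqp2 in the gated cells and required at least 5 UMIs of 1 of them in the other classes. The E15.5 value for Slc12a3 cells rests on 7 cells. The 7 thick ascending limb markers summed to 2237 CPM in the transplant, 389 CPM at E15.5, 621 CPM at E17.5 and 440 CPM at P0, and the 10 proximal tubule markers to 1855, 84.0, 662 and 578 CPM. At least 5 UMIs of a defining gene of another part of the nephron, such as Slc12a1 (the thick limb cotransporter) or Slc34a1 (the proximal phosphate transporter), were held by 28 of 157 transplant members, 1 of 33 at E15.5, 3 of 26 at E17.5 and 6 of 85 at P0. Whether those members are mixed droplets was not tested; a doublet caller, Scrublet, marked 2 of the 28, 1 of the 1, 0 of the 3 and 1 of the 6. Over all members it marked 9 in the transplant (5.73%, against 5.29% of all filtered cells), 1 at E15.5 (3.03% against 2.86%), 8 at E17.5 (30.8% against 3.66%) and 10 at P0 (11.8% against 6.48%). Values that depend on these cells are given with and without them. No member barcode was shared with a member of another library.

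The first question put to the data was how the gated cells differ from the cells gated on Slc12a3 within the same libraries. Genes of sodium chloride uptake and its kinase control were lower in the gated cells, and of the genes named by rule Aldh1a3, Spink8 and Fxyd4 had the largest rises. UMIs were summed per library and cell class and tested with edgeR's quasi-likelihood test with the library as a block, over the transplant, E17.5 and P0; only 7 Slc12a3 cells were found at E15.5. Of 7935 genes tested, 175 passed an adjusted p of 0.05 (2.21%), 78 of them higher in the gated cells (0.983%) and 97 lower (1.22%). Both gates read Slc12a3, so genes that vary with it in single cells are not independent of the choice.

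Of the 22 genes listed for the distal convoluted tubule, 19 were tested, 12 fell and none rose. Wnk1 and Wnk4, kinases that activate the cotransporter's own kinase, fell by 2.38 ± 0.40 (log2, SE, adjusted p = 0.016) and by 2.18 ± 0.27 (adjusted p = 0.0037). Wnk4 stood at 66.5 CPM in the gated cells and 222 CPM in the Slc12a3 cells of the transplant, and at 24.0 CPM against 135 CPM at E17.5. Klhl3, the adaptor that marks WNK kinases for degradation, fell by 1.73 ± 0.25 and Stk39, the SPAK kinase, by 1.36 ± 0.27 (adjusted p = 0.0093 and 0.033). Ppp1r1a, a phosphatase inhibitor, fell by 3.07 ± 0.34 (adjusted p = 0.0020). The potassium channel Kcnj10 fell by 1.57 ± 0.35 and the magnesium transport gene Cnnm2 by 1.55 ± 0.33 (adjusted p = 0.047 and 0.041).

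Atp1b1, the beta subunit of the sodium pump, fell as well. It had 3125 CPM in the gated cells against 4716 CPM in the Slc12a3 cells of the transplant, 930 against 5739 CPM at E17.5 and 751 against 3114 CPM at P0. The fitted fall was 1.76 ± 0.37 (log2, SE, adjusted p = 0.037), in 3 of 3 libraries. Kcnj1, the ROMK potassium channel, fell by 3.15 ± 0.61 (adjusted p = 0.031), with 136 CPM in the gated cells against 393 CPM in the Slc12a3 cells of the transplant, 3.43 against 283 CPM at E17.5 and 3.91 against 170 CPM at P0. The gated cells of the kidneys in situ thus held Kcnj1 near the level of 1 to 5 UMIs in all. Abca13, an ABC transporter gene, had the deepest fitted fall, 6.54 ± 0.49 (adjusted p = 0.00020), though the gated cells held so few UMIs of it that the size depends on the model's prior count.

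Transcription factors of the distal nephron were divided. Emx1 fell by 1.93 ± 0.32, Tfap2b by 1.44 ± 0.30 and Sall3 by 2.66 ± 0.45 (adjusted p = 0.015, 0.037 and 0.016), and Tmem52b fell by 1.54 ± 0.25 (adjusted p = 0.014). The nuclear receptor Esrrg and its coactivator Ppargc1a, which promote mitochondrial genes, fell by 1.29 ± 0.29 and by 1.36 ± 0.26 (adjusted p = 0.047 and 0.026). Irx1, a homeobox gene of the intermediate nephron, rose by 1.95 ± 0.33 (adjusted p = 0.017), but its difference lost the call without the members carrying other segments' genes (adjusted p = 0.87). Of the 22 distal nephron genes, 17 were tested, 5 fell and 1 rose.

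Among the genes that rose, Aldh1a3, which makes retinoic acid, had 36.9 CPM in the gated cells against 0.667 CPM in the Slc12a3 cells of the transplant, 178 against 5.89 CPM at E17.5 and 121 against 3.63 CPM at P0. The fitted rise was 5.16 ± 0.42 (log2, SE, adjusted p = 0.00032). Of the 20 principal cell genes, 12 were tested, Fxyd4 and Npnt rose and none fell. Of the 19 intercalated cell genes, 10 were tested, Car2 and Spink8 rose and none fell. Against Aqp2 cells the same 2 genes, Car2 and Spink8, were lower in the gated cells. They were the only calls there among 11 intercalated genes tested. Fxyd4, the pump regulator of principal cells, rose by 4.57 ± 0.40 (adjusted p = 0.00034), and the Slc12a3 cells held none of it at E17.5 and at P0. Spink8, a protease inhibitor gene, rose by 4.83 ± 0.41 and Car2, the cytosolic carbonic anhydrase, by 2.92 ± 0.29 (adjusted p = 0.00034 and 0.00098). Aadat, an aminotransferase gene, rose by 4.15 ± 0.42 and Slc22a6, an organic anion transporter of the proximal tubule, by 3.03 ± 0.52 (adjusted p = 0.0011 and 0.016). Arhgdib, Rprm, Hacd4, Slc6a13 and Pmaip1, the other genes named by rule, rose by 2.94 to 3.66, and Apoc1, Fam214a, Mfsd4a and Tmem72 fell by 2.20 to 2.66. Aadat, Slc22a6, Slc6a13, Rprm and Pmaip1 did not pass the count filter, and so were not tested, once the members carrying other segments' genes were left out. Npnt, an integrin ligand, rose by 1.18 ± 0.23, Cldn4 by 1.71 ± 0.38 and the proliferation marker Mki67 by 2.29 ± 0.41 (adjusted p = 0.032, 0.047 and 0.020).

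The defining genes of sodium and calcium handling did not pass the test against Slc12a3 cells. Hsd11b2 had 604 CPM in the gated cells against 195 CPM in the Slc12a3 cells of the transplant, but 92.7 against 106 CPM at E17.5 and 73.6 against 79.8 CPM at P0, and the fitted difference was 0.66 ± 0.37 (adjusted p = 0.43). Scnn1g, the gamma subunit of the sodium channel, gave 0.997 ± 0.48 (adjusted p = 0.36) and Aqp3, a basolateral water channel, 1.85 ± 0.53 (adjusted p = 0.11). Of the 20 calcium and vitamin D genes, 9 were tested, none rose and 2 fell, the vitamin D receptor Vdr by 1.93 ± 0.41 and the calcium pump Atp2b4 by 2.05 ± 0.38 (adjusted p = 0.039 and 0.025). Of the 25 sodium channel and aldosterone genes, 24 were tested, with Fxyd4 and Tmem27, a collectrin gene, higher and 3 genes lower, Atp1b1 and Wnk1 among them. The number of calls was 58 without the transplant, 352 without E17.5, 473 with 0 UMIs of the excluded genes (transplant and P0 only) and 86 without the members carrying other segments' genes. Without the library block none passed, with 601 at an unadjusted p under 0.05 in edgeR's test. Without the transplant, Arhgdib, Rprm, Hacd4, Apoc1, Sall3, Wnk1, Klhl3, Stk39, Cnnm2, Tfap2b, Esrrg, Ppargc1a, Vdr, Cldn4, Npnt, Mki67 and Tmem27 lost the call, without P0 Atp1b1, Tfap2b, Stk39, Esrrg, Cldn4, Npnt and Tmem27, and without E17.5 Cnnm2, Esrrg and Mki67. Without the members carrying other segments' genes, Atp1b1, Kcnj10, Cnnm2, Emx1, Tmem52b, Esrrg, Ppargc1a, Npnt and Tmem27 lost it as well as Irx1. By DESeq2, Mfsd4a, Cnnm2, Esrrg, Irx1, Kcnj10, Stk39 and Tmem27 did not pass.

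**Figure D1:**
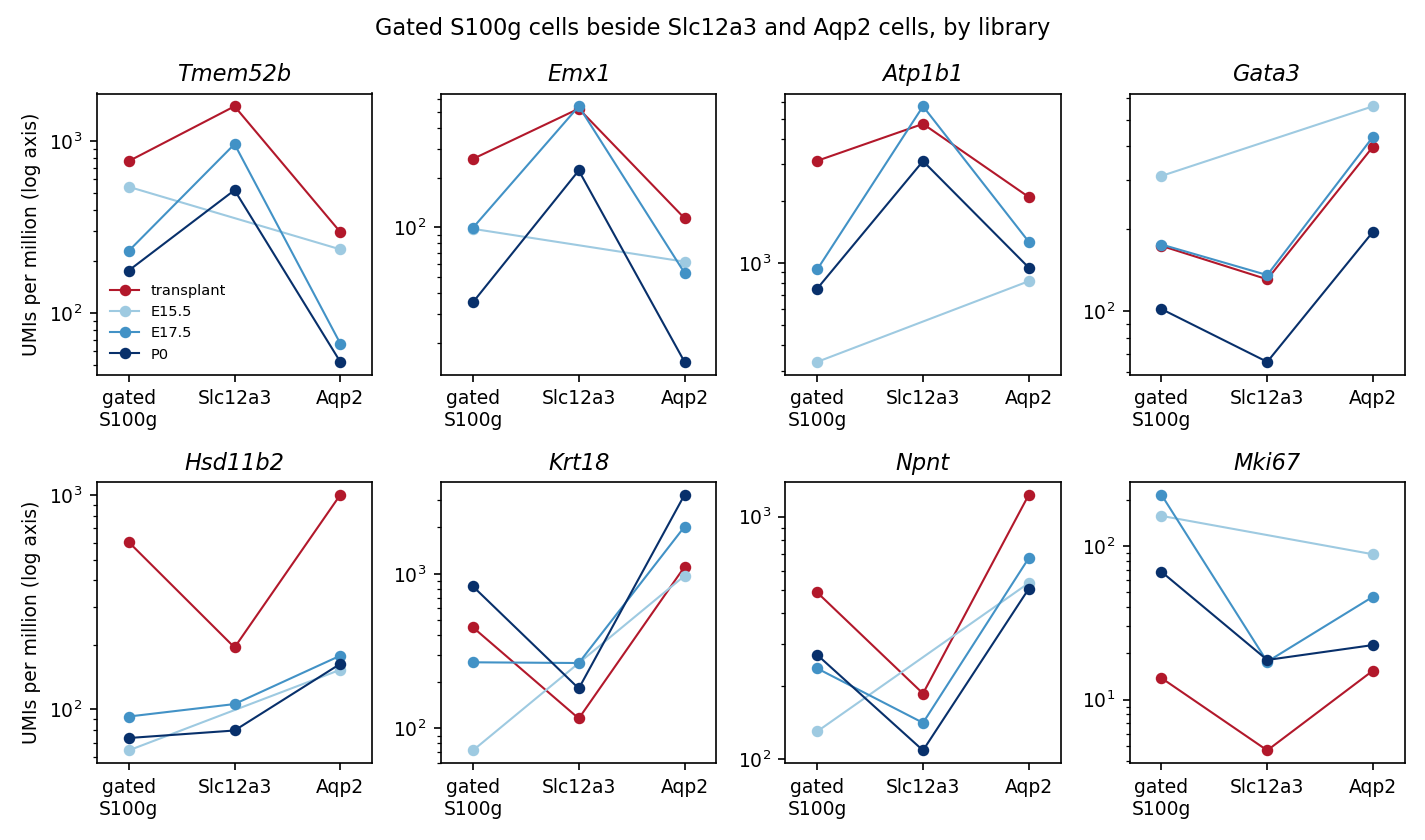
Levels of 8 genes outside the gates (UMIs per 1000000, CPM, on log axes that differ between panels) in gated S100g cells, Slc12a3 cells and Aqp2 cells, with 1 point for each library joined by a line; Slc12a3 cells at E15.5, of which there were 7, are not drawn. Atp1b1 stood at 3125 CPM in gated cells against 4716 CPM in Slc12a3 cells of the transplant, and Krt18 stood lower in gated cells than in Aqp2 cells in all 4 libraries.

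The second question was how the gated cells differ from the cells gated on Aqp2. Principal cell and ureteric genes were lower in the gated cells, and genes of the distal nephron and of cell division were higher. The same test over all 4 libraries called 929 of 9515 genes (9.76%), 402 of them higher in the gated cells (4.22%) and 527 lower (5.54%). Both gates read Aqp2, with the same limit on independence as above.

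Of the 20 principal cell genes, 17 were tested, 14 fell and none rose. Fxyd4 had 301 CPM in the gated cells against 2185 CPM in the Aqp2 cells of the transplant, 16.1 against 910 CPM at E15.5, 51.5 against 1181 CPM at E17.5 and 30.5 against 938 CPM at P0. Its fitted fall was 4.37 ± 0.40 (log2, SE, adjusted p = 0.00018). Aqp4, the second basolateral water channel of principal cells, fell by 5.64 ± 0.28 (adjusted p = 3.5e-06), the vasopressin receptor Avpr2 by 2.59 ± 0.41 and the transcription factor Elf5 by 2.76 ± 0.20 (adjusted p = 0.0032 and 5.1e-05). The peptide hormone gene Apela fell by 3.32 ± 0.17 (adjusted p = 3.5e-06). Of the 25 sodium channel and aldosterone genes, 24 were tested, 4 fell, 2 rose and 18 did not pass. Besides Fxyd4, those that fell were the channel subunit gene Scnn1g by 1.30 ± 0.22, the enzyme gene Hsd11b2 by 1.01 ± 0.14, and Nedd4l, a ubiquitin ligase that takes the channel from the membrane, by 1.19 ± 0.19 (adjusted p = 0.0048, 0.0018 and 0.0036), each in 4 of 4 libraries. Fxyd2, the pump's gamma subunit, rose by 2.31 ± 0.39 (adjusted p = 0.0045), and it lost its call without the members carrying other segments' genes.

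Of the 22 ureteric lineage genes, 19 were tested, 11 fell and 1 rose. Wnt9b, the signal by which the ureteric bud induces nephrons, had 0.658 CPM in the gated cells against 80.0 CPM in the Aqp2 cells of the transplant, 0.700 against 73.5 CPM at E15.5, 3.43 against 65.3 CPM at E17.5 and 0 against 14.3 CPM at P0. Each of the first 3 levels in gated cells rests on 1 UMI. The fitted fall was 6.23 ± 0.39 (adjusted p = 1.5e-05). Shh, the hedgehog signal of the medullary collecting duct and ureter, fell by 5.27 ± 0.63 (adjusted p = 0.00075). The keratins Krt18, Krt8, Krt19 and Krt7 fell by 2.43 ± 0.32, 1.94 ± 0.31, 2.57 ± 0.41 and 2.45 ± 0.37 (adjusted p = 0.0012, 0.0032, 0.0035 and 0.0025). Gata3 and Gata2, transcription factors of the ureteric bud, fell by 1.06 ± 0.14 and by 2.54 ± 0.37 (adjusted p = 0.0012 and 0.0020). Sprr2f, a small proline-rich protein gene of cornified and stressed epithelia, fell by 8.11 ± 0.25 (adjusted p = 1.1e-07), with 8.56 CPM in the gated cells against 2648 CPM in the Aqp2 cells of the transplant. Ctse, Paqr6, Tbx3os1, Tchh, S100a14 and Tff2, also named by rule, fell by 4.72 to 8.01, and Ctse and Paqr6 had no UMI in the gated cells of any library, so that the size of their fall depends on the prior count.

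Of the 22 distal nephron genes, 18 were tested, 8 rose and none fell. Emx1 had 260 CPM in the gated cells against 114 CPM in the Aqp2 cells of the transplant, 98.0 against 62.0 CPM at E15.5, 99.5 against 53.0 CPM at E17.5 and 35.2 against 15.3 CPM at P0, a fitted rise of 1.01 ± 0.15 (adjusted p = 0.0023). Sall3 rose by 2.75 ± 0.39, Irx1 by 3.27 ± 0.43, Irx3 by 1.91 ± 0.26, and Lhx1, a homeobox gene needed early in the nephron, by 1.46 ± 0.30 (adjusted p = 0.0018, 0.0012, 0.0014 and 0.013). The signal Bmp2 rose by 2.0 ± 0.38 and the nuclear receptor Nr2f2 by 1.11 ± 0.22 (adjusted p = 0.0083 and 0.011). Tmem52b rose by 1.52 ± 0.13 and the parathyroid hormone receptor Pth1r by 1.53 ± 0.25 (adjusted p = 0.00014 and 0.0039). Pth1r lost its call without the members carrying other segments' genes (adjusted p = 0.19), and the proximal gene Slc34a1, which rose by 3.37 ± 0.21 with them (adjusted p = 1.5e-05), gave −0.22 without them. The other genes named by rule as higher were Slc6a18, Mep1a, Cpb2, Slc27a2, Tmem174, Slc12a1, Sult1d1 and Aadat, which rose by 3.16 to 3.89. Neither these nor Irx1 passed the count filter without those members, so they were not tested there.

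Of the 26 proliferation genes, all were tested against Aqp2 cells, 18 rose and none fell. Mki67 had 158 CPM in the gated cells against 88.5 CPM in the Aqp2 cells at E15.5, 216 against 46.9 CPM at E17.5 and 68.1 against 22.7 CPM at P0, but 13.8 against 15.5 CPM in the transplant, and the fitted rise was 1.26 ± 0.27 (adjusted p = 0.016). Top2a, the topoisomerase of dividing cells, rose by 1.62 ± 0.24 (adjusted p = 0.0020). Of the 25 genes listed for the response to dissociation, 13 fell and 2 rose. The number of calls was 427 without P0, 522 without E17.5, 602 without E15.5 and 1435 without the transplant. Mki67 lost its call without E15.5, without E17.5 and without P0, Lhx1 without E15.5 and without E17.5, and Slc12a1 without E15.5, without E17.5 and by DESeq2. With 0 UMIs of the excluded genes Mki67 and Emx1 lost theirs, and without the library block 54 genes passed in all.

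Genes differed in where they placed the gated cells between the other classes, and those given here were chosen after their values were seen. Tmem52b had 764 CPM in the gated cells of the transplant, against 1592 CPM in Slc12a3 cells and 296 CPM in Aqp2 cells, and was below the first and above the second in all 4 libraries, with only 7 Slc12a3 cells at E15.5. Fxyd4 ran the other way, at 301 CPM in the gated cells against 13.3 CPM in Slc12a3 cells and 2185 CPM in Aqp2 cells of the transplant. Neither gene was read by the gates. Stk39 was lower in the gated cells than in both other classes, with 41.5 CPM in the gated cells, 84.0 CPM in Slc12a3 cells and 57.1 CPM in Aqp2 cells of the transplant, and it passed both tests (−0.69 ± 0.18 against Aqp2 cells, adjusted p = 0.036). That call against Aqp2 cells was lost without E15.5, E17.5 or P0, by DESeq2 and with 0 UMIs of the excluded genes. Hsd11b2 and Scnn1g were below Aqp2 cells and did not pass against Slc12a3 cells.

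The gated cells were not uniform. The members with and without an Scnn1b UMI are set side by side here as a description with no test, since the rule read Scnn1b and admitted the members without it through Calb1 alone. In the transplant the members without Scnn1b were few and held 2271 CPM of Slc12a1, against 906 CPM in those with it. There, the 148 members with an Scnn1b UMI had 644 CPM of Hsd11b2 and the 9 without had 57.2 CPM, a ratio of 11.2 (95% interval 5.15 to 30.7). The ratio was 3.83 (2.29 to 6.72) at E15.5, 2.70 (1.10 to 7.56) at E17.5 and 2.93 (1.69 to 5.37) at P0. Scnn1g gave 15.6 in the transplant (2.76 to 617, with 1 UMI in the cells without Scnn1b), 5.19 (1.96 to 17.3) at E15.5 and 4.2 (1.64 to 13.7) at P0. Aqp3 had ratios of 3.1 (1.42 to 7.47) at E15.5, 2.83 (1.08 to 8.72) at E17.5 and 3.58 (2.31 to 5.76) at P0. Aldh1a3 gave 5.32 (3.19 to 9.35) at E15.5, 3.52 (1.78 to 7.60) at E17.5 and 3.25 (2.09 to 5.26) at P0, and Gata3 gave 2.97 (2.39 to 3.71), 1.35 (0.747 to 2.48) and 2.40 (1.55 to 3.85) at the same ages.

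Tfap2b, a transcription factor of the distal nephron, had ratios of 0.854 (0.595 to 1.27) in the transplant, 0.594 (0.469 to 0.750) at E15.5, 0.551 (0.264 to 1.11) at E17.5 and 0.525 (0.237 to 1.15) at P0. Tmem52b had ratios of 10.7 (5.40 to 24.8) in the transplant, 1.06 (0.919 to 1.22) at E15.5, 0.864 (0.518 to 1.44) at E17.5 and 1.21 (0.910 to 1.62) at P0. These ratios compare cells of the same library, and their intervals do not measure the spread between animals or between cells.

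The third question was how the gated cells of the transplant stand beside those of the kidneys in situ. Of the 25 sodium channel and aldosterone genes, 21 were higher in the transplant than at P0 and 20 higher than at E17.5, and most genes of cell division and of fetal growth were lower than at either age. Among 9549 genes with at least 20 UMIs over the gated cells of both libraries, 30.3% differed by at least 2-fold between the transplant and P0, 20.8% higher in the transplant and 9.51% lower. Between the transplant and E17.5, which share the C57BL/6 background, it was 28.7% of 8631 genes, 18.9% higher and 9.81% lower. The median log2 ratio over all genes was 0.30 against P0 and 0.12 against E17.5.

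Hsd11b2 had 604 CPM (95% Poisson interval 565 to 644) in the gated cells of the transplant, 64.4 (51.9 to 79.0) at E15.5, 92.7 (61.1 to 135) at E17.5 and 73.6 (59.5 to 90.0) at P0. The transplant stood above the 3 ages, whose intervals overlapped one another. Over all members the ratio was 8.20 (6.63 to 10.3) to P0 and 6.51 (4.45 to 9.94) to E17.5. An Scnn1b UMI was held by 94.3% of transplant members, 51.5% of E15.5 members, 50% of E17.5 members and 63.5% of P0 members. Members holding it had 644 CPM of Hsd11b2 in the transplant, 102 CPM at E15.5, 134 CPM at E17.5 and 97.7 CPM at P0. Members without it had 57, 27, 49 and 33 CPM in the same order. What part the share of members with Scnn1b has in the transplant's ratios was not tested. Scnn1g had 139 CPM in the transplant, 21.7 CPM at E15.5, 27.5 CPM at E17.5 and 31.3 CPM at P0, with ratios of 4.44 (3.15 to 6.39) to P0 and 5.06 (2.52 to 11.9) to E17.5. Scnn1a, the alpha subunit that the channel needs to conduct, was sparse throughout, with 54 UMIs in the transplant, 1 at E15.5, none at E17.5 and 7 at P0, and the ratio to P0 was 6.49 (2.94 to 16.9). Prss8, a protease that activates the channel, had 182 CPM in the transplant, 41.3 CPM at E15.5, 27.5 CPM at E17.5 and 39.9 CPM at P0.

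Other transport genes are given by their values. Atp1b1 had 3125 CPM in the transplant, 332 CPM at E15.5, 930 CPM at E17.5 and 751 CPM at P0, a ratio of 4.16 (3.88 to 4.46) to P0. Fxyd4 had 301 CPM in the transplant and 30.5 CPM at P0, a ratio of 9.85 (7.10 to 14.0), and Kcnj16, a basolateral potassium channel, 259 CPM in the transplant and 39.9 CPM at P0, a ratio of 6.48 (4.83 to 8.85). Kcnj1 had 207 UMIs in the transplant and 5 at P0, a ratio of 34.8 (14.7 to 108), and 1 UMI at E17.5. Aqp3 had 601 CPM in the transplant, 25.9 CPM at E15.5, 82.4 CPM at E17.5 and 131 CPM at P0, and Rhcg, an ammonia transporter of the connecting tubule and collecting duct, 607, 19.6, 61.8 and 72.0 CPM. Of the sodium channel and aldosterone genes that were higher in the transplant, 15 were so by at least 2-fold against P0 and 17 against E17.5, and the list's median log2 ratio was 1.46 to P0 and 1.59 to E17.5. Sgk1, a kinase that aldosterone induces, was an exception against P0, with 155 CPM in the transplant and 207 CPM at P0, though at E15.5 and E17.5 it had 4.2 and 24.0 CPM.

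Klk1, the kallikrein of the connecting tubule, had 1811 UMIs in 69 of 157 gated cells of the transplant and none in 33 cells at E15.5 or 85 cells at P0. At E17.5 all of its 61 UMIs came from 1 cell. Klk1 UMIs were also seen in endothelial cells of the transplant. At 3000 UMIs per cell, 32.5% of gated cells and 7.80% of endothelial cells held a UMI, and before thinning 43.9% and 14.9% did. Whether the endothelial UMIs were free RNA or came from mixed droplets was not tested. The transplant level of 1192 CPM was at least 508-fold higher than at P0, taking 3 UMIs over the P0 members as the limit that a count of 0 allows. Klk1 was not particular to the gate, since Slc12a3 cells of the transplant held it at 892 CPM and Aqp2 cells at 27.6 CPM. Klk1 has close relatives in a gene cluster on chromosome 7 (Klk1 itself at 7:44225360-44229618, GRCm38), and how reads were divided between them was not tested.

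Calcium genes moved less evenly. Vdr had 52.7 CPM in the transplant, 8.40 at E15.5, 3.43 (1 UMI) at E17.5 and 15.7 at P0, and Kl, the coreceptor for a phosphate hormone, 115, 1.40, 44.6 and 23.5 CPM. Pth1r had 191 CPM in the transplant and 43.8 CPM at P0, a ratio of 4.35 (3.26 to 5.91), but 134 CPM at E17.5. Trpv5, the apical calcium channel, had 32 UMIs in 25 transplant cells, 4 UMIs at E15.5, 3 UMIs at E17.5 and 7 UMIs at P0. Its ratio to P0 was 3.84 (1.67 to 10.3) and its ratio to E17.5 was 2.05 (0.640 to 10.4), which was not distinguishable from 1 at this depth. Slc8a1, the sodium calcium exchanger, had 6 UMIs in the transplant and 15 at P0, and Atp2b1, a calcium pump, had 180 CPM in the transplant and 250 CPM at P0. Of the 20 genes of the calcium list, 13 had enough UMIs against P0 and 10 were higher in the transplant, with a median of 1.20; against E17.5, 11 of 11 were higher with a median of 0.83.

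**Figure D2:**
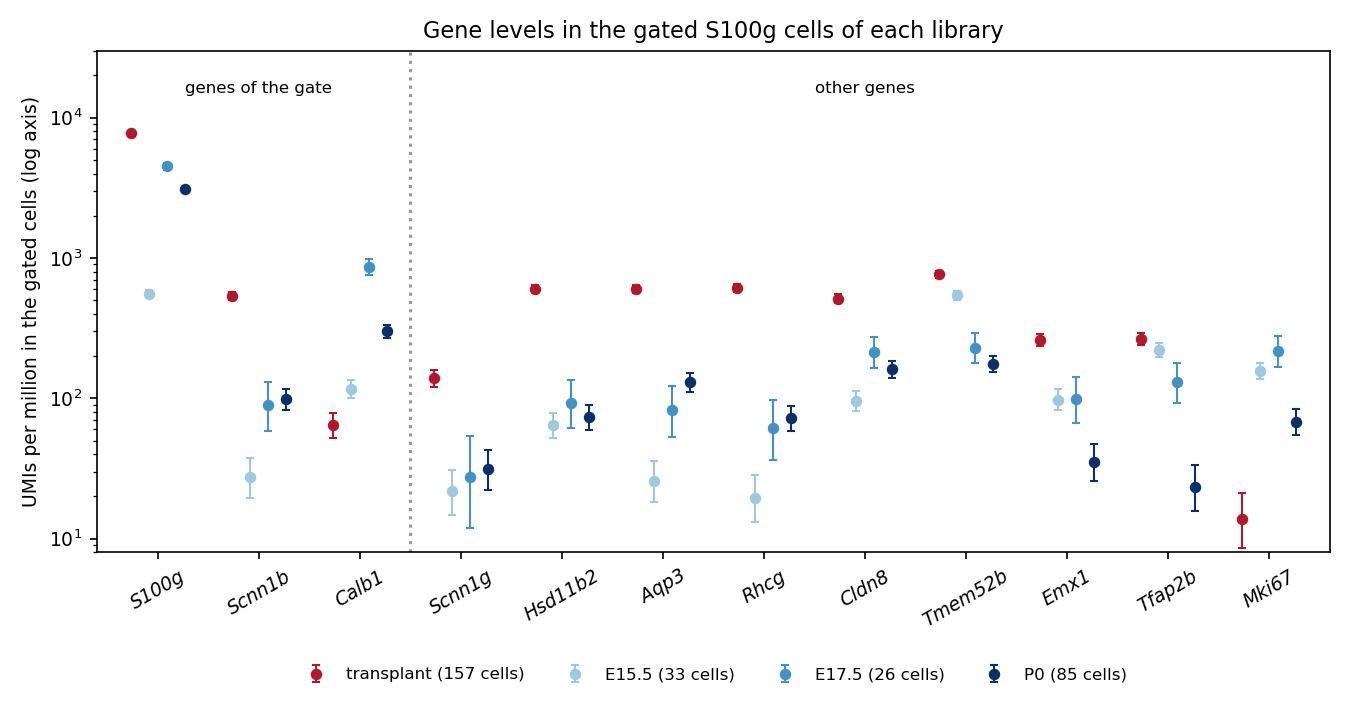
Levels of 3 genes of the gate, left of the dotted line, and 9 genes outside it (UMIs per 1000000, CPM, log axis) in the gated S100g cells of the transplant, E15.5, E17.5 and P0 libraries, with bars for the exact Poisson 95% interval. Hsd11b2 stood at 604 CPM in the transplant and between 64.4 and 92.7 CPM at the 3 ages, while Mki67 stood at 13.8 CPM in the transplant and between 68.1 and 216 CPM at the 3 ages.

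Of 20 distal nephron genes with enough UMIs, 17 were higher in the transplant than at P0, 10 of them by at least 2-fold, with a list median of 0.86. Emx1 had 260 CPM in the transplant, 98.0 CPM at E15.5, 99.5 CPM at E17.5 and 35.2 CPM at P0, a ratio of 7.38 (5.41 to 10.3) to P0 and 2.61 (1.79 to 3.95) to E17.5. Tfap2b had 264 CPM in the transplant, 221 CPM at E15.5, 130 CPM at E17.5 and 23.5 CPM at P0, and Tmem52b had 764, 542, 230 and 177 CPM in the same libraries. For both genes the transplant lay nearer to E15.5 than to P0. Cdh16, the kidney cadherin, had 1825 CPM in the transplant, 98.7 CPM at E15.5, 271 CPM at E17.5 and 276 CPM at P0. Gata3 had 173 CPM in the transplant and 175 CPM at E17.5, a ratio of 0.989 (0.730 to 1.36). After Klk1 and Kcnj1, the largest ratios to P0 among the genes named by rule belonged to Kng2, a kininogen, with 314 CPM in the transplant and 10.2 CPM at P0, a ratio of 30.9 (17.9 to 58.4), and to Tspan1, a tetraspanin, at 24.2 (10.1 to 75.7). Pgam2, a glycolytic enzyme, gave 15.4 (9.60 to 26.3). Slc12a1 gave 19.4 (15.1 to 25.2), but 30 of 157 transplant members held all of it. Car15, a carbonic anhydrase, gave 21.0 (11.8 to 41.0), and its log2 ratio was −0.13 without the members carrying other segments' genes. The thick ascending limb list had a median log2 ratio of 2.81 to P0 with those members and 1.20 without them.

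Against E17.5, the rule for named genes gave Clu, a secreted chaperone, with 708 CPM in the transplant and 58.4 CPM at E17.5, a ratio of 12.1 (7.54 to 20.9). Rhcg gave 9.83 (6.19 to 16.7) and Kcnj16 12.6 (5.72 to 34.4). Plet1, a surface protein of epithelial progenitors, had 324 UMIs in the transplant and 1 at E17.5, a ratio of 62.1 (11.1 to 2461). Kng2 and Ckmt1, the mitochondrial creatine kinase, had 3 UMIs each at E17.5, with ratios of 30.5 (10.4 to 148) and 16.9 (5.71 to 82.3).

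Genes of the cell cycle were lower in the transplant than at P0 and at E17.5. All 26 genes of the proliferation list were lower than at P0, 24 of them by at least 2-fold, with a median log2 ratio of −2.64, and 25 of 25 were lower than at E17.5, with a median of −3.97. Mki67 had 13.8 CPM in the transplant, 158 CPM at E15.5, 216 CPM at E17.5 and 68.1 CPM at P0. At 3000 UMIs per cell, 2.38% of the transplant members held a UMI of it, 31.2% of members at E15.5, 26.9% of members at E17.5 and 13.9% of members at P0, with 31, 1, 0 and 6 shallower members left out. Before thinning the shares were 4.46%, 84.8%, 53.8% and 34.1%. The transplant level was 4.93-fold (3.03 to 8.36) lower than at P0 and 15.6-fold (9.42 to 27.0) lower than at E17.5. Ube2c, which drives exit from mitosis, was 23.9-fold (16.9 to 34.8) lower than at E17.5, Cenpf, a kinetochore protein, 27.5-fold (16.5 to 48.4) and Ccnb1, the mitotic cyclin, 16.0-fold (8.93 to 30.1). Cenpa, Prc1, Cenpe and Kif23, which also act in mitosis, were 7.35-fold to 24.8-fold lower. Gfra1, the coreceptor for the growth factor GDNF, was 7.82-fold (4.30 to 14.5) lower.

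Levels were also taken cell by cell. Summed over the 26 proliferation genes, the median gated cell held 1.33 UMIs per 10000 UMIs in the transplant, 31.2 UMIs at E15.5, 21.4 UMIs at E17.5 and 4.89 UMIs at P0. For Hsd11b2, Scnn1a and Scnn1g together, the medians were 9.87 UMIs in the transplant, 0.673 UMIs at E15.5, 0.851 UMIs at E17.5 and 0.575 UMIs at P0. None of the 3 sodium genes was seen in 19 of 157 transplant members, 10 of 33 at E15.5, 11 of 26 at E17.5 and 31 of 85 at P0. The highest single cell reached 82.8 UMIs per 10000 in the transplant and 20.6 at P0, so the libraries' ranges overlapped.

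**Figure D3:**
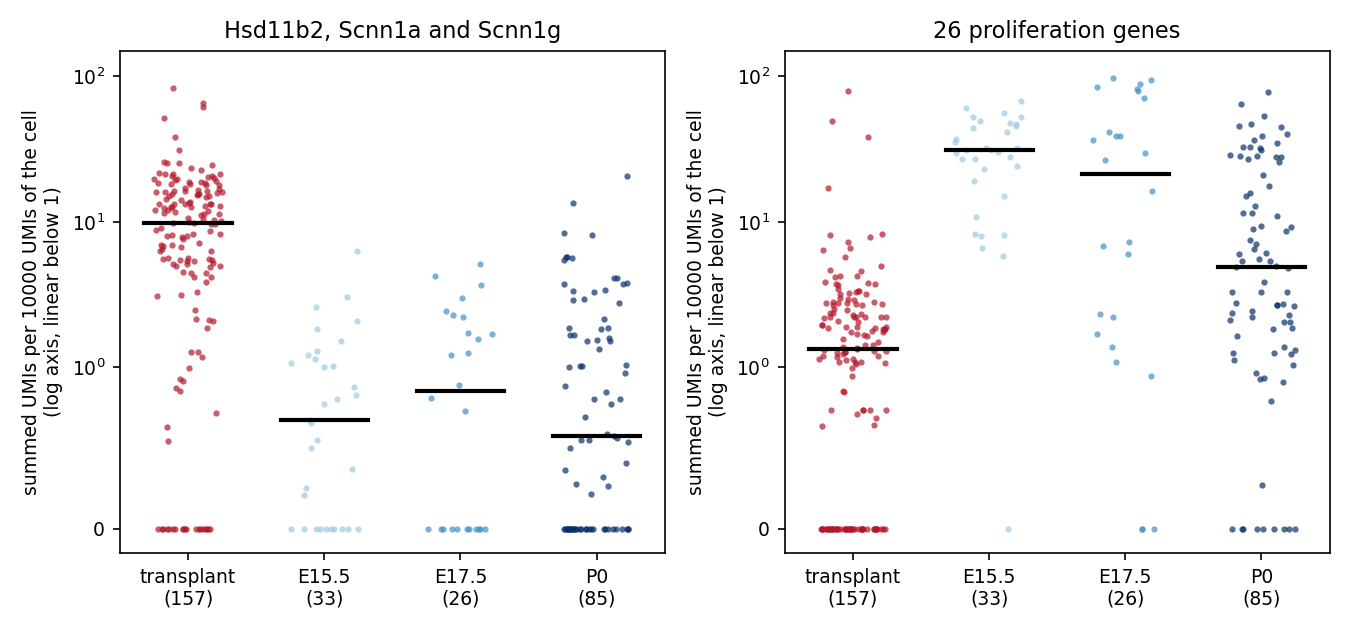
Summed UMIs per 10000 UMIs of the cell (log axis, linear below 1) for each gated S100g cell in the transplant, E15.5, E17.5 and P0 libraries, with a bar at the median. The left panel sums Hsd11b2, Scnn1a and Scnn1g, with medians of 9.87, 0.673, 0.851 and 0.575, and the right panel sums 26 proliferation genes, with medians of 1.33, 31.2, 21.4 and 4.89.

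Imprinted and fetal growth genes were lower in the transplant as well. Of 16 such genes with enough UMIs, 13 were lower than at P0, 10 of them by at least 2-fold, with a list median of −1.34. Igf2, the fetal growth factor, had 3 UMIs in the transplant members, against 167 UMIs at E15.5, 26 UMIs at E17.5 and 200 UMIs at P0, a ratio to P0 of 0.0126 (0.00258 to 0.0374). Mest, an imprinted hydrolase gene, had 19.7 CPM in the transplant, 230 CPM at E15.5, 144 CPM at E17.5 and 182 CPM at P0, and H19, the imprinted noncoding RNA beside Igf2, had 48.7 CPM in the transplant and 148 CPM at P0. Other genes named by rule as lower than at P0 were Egr4, an immediate early transcription factor, by 36.9-fold (12.2 to 182), Rprm, a p53 target, by 13.5-fold (6.58 to 32.3), Ntm, a neural adhesion molecule, by 9.99-fold (5.17 to 21.6) and Cthrc1, a secreted repair protein, by 8.60-fold (5.16 to 15.2). Mthfd2, a mitochondrial folate enzyme of growing cells, was 4.44-fold (3.34 to 6.00) lower, and the placental growth restrictor Phlda2 was 12.8-fold (5.18 to 41.1) lower. Pfkfb3, a regulator of glycolysis, was 7.33-fold (3.96 to 14.8) lower and the interferon-induced chemokine Cxcl10 5.31-fold (4.17 to 6.85) lower.

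Antigen presentation genes were higher in the transplant. Cd74, the class II invariant chain, had 145 CPM (127 to 166) in 45 of 157 gated cells, against 14.1 CPM (8.35 to 22.3) at P0, and it had 1 UMI each at E15.5 and E17.5. H2-Ab1, a class II gene, had 81.6 CPM in the transplant and 11.7 CPM at P0, and H2-D1, a class I gene, had 302 CPM in the transplant, 9.10 CPM at E15.5, 27.5 CPM at E17.5 and 153 CPM at P0. Of 15 such genes with enough UMIs, 14 were higher than at P0, 8 by at least 2-fold, with a list median of 1.28; class I genes are near copies of one another, and how reads were divided between them was not tested. The 104 transplant members with no UMI of any leukocyte marker had 202 CPM of Cd74, 113 CPM of H2-Ab1 and 297 CPM of H2-D1. The markers had only 89 UMIs over all 157 members. Whether free RNA or mixed droplets added to these levels was not tested.

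The fourth question was how the gated cells of the ICR kidneys differ between P0 and E15.5. Cell cycle and distal nephron genes were lower at P0, while Hsd11b2 and Scnn1g were not distinguishable between the ages. Of 9063 genes with at least 20 UMIs over both libraries, 22.2% differed by at least 2-fold, 12.2% higher at P0 and 10.0% lower, and the median log2 ratio was −0.05. Hsd11b2 had 94 UMIs at P0 and 92 at E15.5, a ratio of 1.14 (0.848 to 1.54), and Scnn1g gave 1.44 (0.880 to 2.38). Aqp3 gave 5.05 (3.52 to 7.41), Rhcg 3.67 (2.38 to 5.83) and Atp1b1 2.26 (2.03 to 2.53), but all 3 turned round when members were chosen on counts thinned to 3000 UMIs, to log2 ratios of −0.49, −0.92 and −0.83. Fxyd2, the pump's gamma subunit, had 586 CPM at P0 and 72.8 CPM at E15.5, and Cdh16 had 276 and 98.7 CPM.

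Distal nephron genes were lower at P0. Of the 18 with enough UMIs, 14 were lower, 10 of them by at least 2-fold, with a list median of −1.21. Tfap2b was 9.42-fold (6.47 to 14.2) lower, Emx2 5.06-fold (4.05 to 6.38), Lhx1 4.59-fold (3.48 to 6.14) and Sall3 5.02-fold (2.76 to 9.88). Gata3 was 3.06-fold (2.51 to 3.75) lower and Emx1 2.78-fold (1.98 to 3.99). The positional gene Hoxb3 was 4.53-fold (3.07 to 6.89) lower and the guidance receptor Ephb3 5.07-fold (2.72 to 10.3). Dqx1, a helicase-like gene named by the same rule as 7.72-fold (3.70 to 18.6) lower, had 97.1% of its E15.5 UMIs in 1 cell, and it was higher at P0 without the richest cell, with a log2 ratio of 0.65.

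Of the 26 proliferation genes, 25 were lower at P0 than at E15.5, 15 by at least 2-fold, with a list median of −1.14, and Top2a had 151 CPM at P0 and 536 CPM at E15.5. Within the gated cells, E17.5 did not lie between these ages for Mki67, with 216 CPM, though E17.5 was of the other strain. All 25 genes of the dissociation response were higher at P0 than at E15.5, 23 by at least 2-fold, with a list median of 2.65. Atf3, a stress transcription factor, had 881 CPM at P0 and 9.80 CPM at E15.5, a ratio of 89.8 (53.3 to 165), and 30.9 CPM in the transplant. Sgk1, which also responds to stress, had 207 CPM at P0 and 4.2 CPM at E15.5 and followed these genes; what part preparation has in either was not tested.

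Of 21 claudin and junction genes with enough UMIs, 17 were higher at P0 and 4 lower, 11 and 0 of them by at least 2-fold, with a list median of 1.04 that was 0.47 with members chosen on thinned counts. Of 18 ureteric genes, which include the keratins, 11 were higher and 7 lower, 10 and 6 of them by at least 2-fold, with a median of 1.93 that was −0.017 with members chosen on thinned counts. Cldn4, a claudin of collecting duct junctions, had 772 CPM at P0 and 42.7 CPM at E15.5, a ratio of 18.1 (14.0 to 23.8), Krt8 gave 10.7 (8.74 to 13.3) and Krt18 11.5 (9.38 to 14.2). The chemokines Cxcl10 and Cxcl16 had 2 and 3 UMIs at E15.5, with ratios of 202 (55.6 to 1677) and 27.2 (8.95 to 135), and Phlda2 had 1, with a ratio of 60.4 (10.4 to 2428). The GTPase gene Rrad gave 14.1 (8.93 to 23.5) and the defensin Defb1 18.7 (9.23 to 44.3), the last turning to a log2 ratio of −1.76 with members chosen on thinned counts. Cryab, a small heat shock protein, was named by rule too, with 256 UMIs at P0 and 1 at E15.5, but 1 cell held 91.4% of the P0 UMIs.

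**Figure D4:**
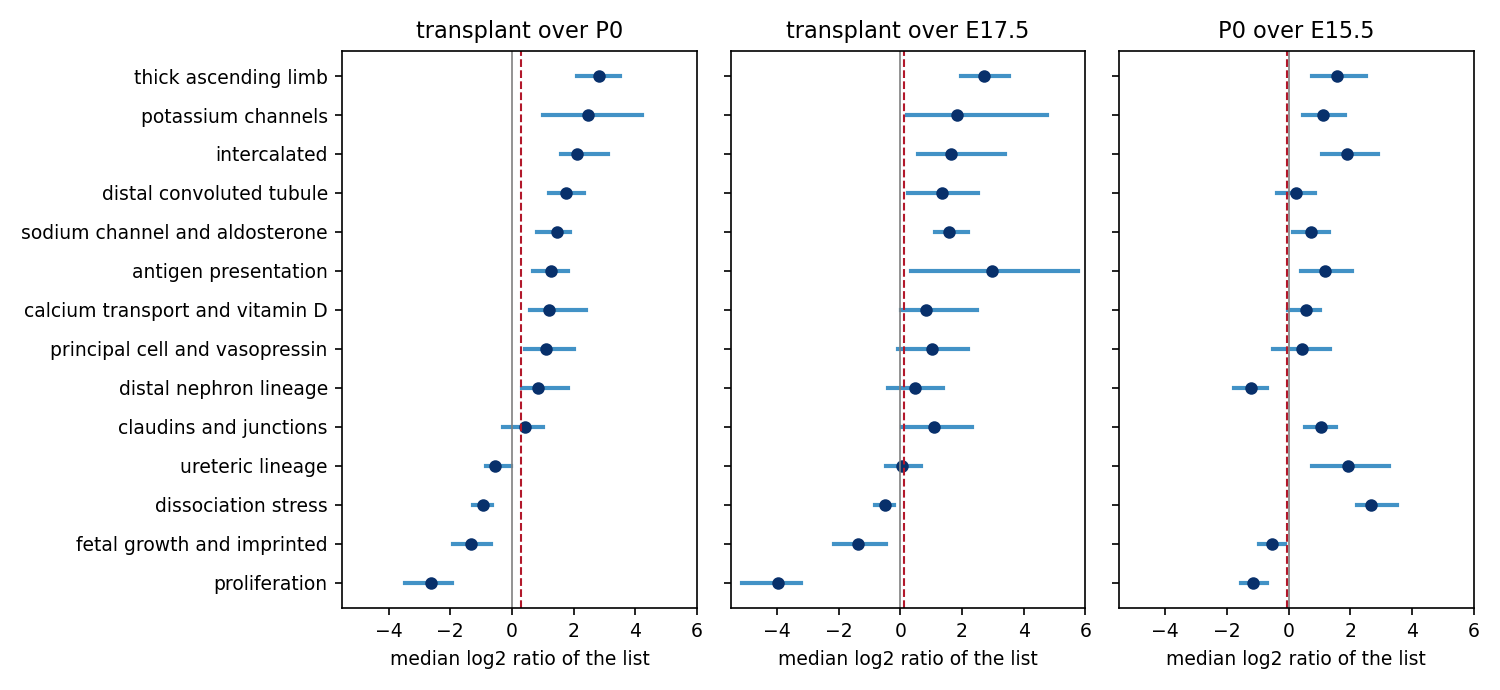
Median log2 ratio of each gene list in the gated S100g cells for the transplant over P0, the transplant over E17.5 and P0 over E15.5, with bars from the median lower to the median upper bound of the genes' 95% counting intervals and a dashed line at the median over all genes. The proliferation list lay at −2.64, −3.97 and −1.14, and the sodium channel and aldosterone list at 1.46, 1.59 and 0.71.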

How the data were processed

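Counts were deposited by the authors as 1 matrix of raw UMI counts per gene and barcode for each of 4 libraries, made with Cell Ranger 3.1.0 on GRCm38, per the submitters' processing notes; the file headers give 3.0.2 for E15.5 and P0. The matrices were filtered and gated in Python 3.11.15 (NumPy 2.4.6, SciPy 1.17.1, pandas 2.3.3), and Scrublet was run in scanpy 1.11.5 with doublets removed only as an alternative. Slc12a3 cells had at least 5 UMIs of Slc12a3 and at most 2 of Aqp2, Aqp2 cells at least 5 of Aqp2 and at most 1 of Slc12a3, both with at most 1 of Atp6v1g3, and endothelial cells at least 2 UMIs of Pecam1 or Cdh5. UMIs summed per library and class (at least 10 cells) were tested in R 4.3.3 with edgeR 4.0.16 (limma 3.58.1), Benjamini-Hochberg adjusted, without the rule's 6 genes. Both classes of a fit came from the same library, which pairs them, so library was a block; residual degrees of freedom were 2 and 3. The labels call each library replicate 1. On simulated data the test recovered 94.7% of 4-fold changes against Slc12a3 cells (190 genes changed among 8174), with 0 false calls. Against Aqp2 cells it recovered 100% (199 genes among 9435), with 7 false calls. The simulation drew every library from the same profile at the fitted dispersion, without library differences, gating or mixed droplets. It therefore does not measure how the test fares with those. Ratios between libraries carry exact conditional binomial 95% intervals, and log2 ratios a pseudocount of 0.5 counts.

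Members and gene lists were chosen with earlier results of these data known. Genes were named by rule: the 10 highest and 10 lowest per class comparison among those past the threshold with 1 sign in every library and at least 100 UMIs, and the 8 highest and 8 lowest per library pair by the interval bound nearest 1, with at least 50 UMIs. Genes of the fixed lists were named besides. Alternatives included DESeq2 1.42.0. A joined matrix of several libraries was not used here. Figures were drawn with Matplotlib 3.10.9. A few genes that the rule for named genes selected are not reported here.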

Additional observations from a re-analysis of the deposited data

Results flagged for a closer look

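The reporter tdTomato is a feature of the deposited matrices although all 4 libraries are labelled wild type. It had 8181 UMIs over all P0 barcodes and 64 UMIs in 31 of the 85 gated S100g cells at P0, and 0 in the other 3 libraries. Its level was 50.1 CPM in the gated P0 cells, 105 CPM in Slc12a3 cells and 64.6 CPM in Aqp2 cells of the same library, and 82.6 CPM over all P0 barcodes.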

How the results depend on the processing

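Shares of gated cells moved beyond their counting interval under several gates. In the transplant the share was 1.99% with at most 10% mitochondrial UMIs, 3.13% with at least 3 and 1.80% with at least 10 S100g UMIs, 0.242% with both Scnn1b and Calb1, 1.25% with 0 UMIs of the 3 excluded genes, 2.97% after thinning and 1.95% without members carrying other segments' genes (an alternative chosen after seeing the data, as were thinned membership and leaving out each gene's richest member). At E15.5 it was 1.37% (S100g at least 3), 0.337% (both), 0.477% (Scnn1b) and 0.381% (thinned); at E17.5 0.175% (both), 0.285% (Scnn1b) and 0.197% (0 UMIs); at P0 0.791% (S100g at least 10), 0.383% (both), 0.667% (Scnn1b) and 0.482% (0 UMIs).

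Calls against Slc12a3 cells numbered 175 by edgeR, 137 by DESeq2 (107 shared), 630 without the count filter, 280 without doublets, 86 without other-segment members and 58 to 352 with 1 library left out. Without the replicate block edgeR called 0, with 601 genes at an unadjusted p under 0.05. Against Aqp2 cells the numbers were 929 by edgeR, 716 by DESeq2, 1646 without the filter, 530 with 0 UMIs of the excluded genes, 427 to 1435 with 1 library left out and 54 without the block. The 0 UMI gate left the transplant and P0 against Slc12a3 cells, where 473 genes were called, 166 of them shared with the 175. Slc34a1 against Aqp2 cells turned to −0.22 without other-segment members.

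Of the list medians recomputed, 414 stayed inside the main counting interval, 19 moved outside it and 7 turned round. A change of sign was counted as a turn only where that interval left out 0. For P0 over E15.5 the connecting tubule, calcium and distal convoluted tubule lists had intervals that held 0. Their medians of 0.41, 0.57 and 0.23 turned negative with members chosen on thinned counts, and were counted as moved. Of the ratios of named genes, 812 stayed inside their interval, 151 moved outside it and 9 turned round by the same count. With members chosen on thinned counts 20 of 40 ratios moved outside it over P0, 23 of 39 over E17.5, and for P0 over E15.5 13 of 29 moved and 5 turned. Choosing members on thinned counts moved P0 over E15.5 to −1.26 for connecting tubule genes, −0.42 for calcium, −0.70 for distal convoluted tubule, −0.83 for intercalated, 0.58 for thick limb, −0.017 for ureteric, 0.47 for claudin and 1.62 for stress genes. It moved transplant over P0 to 1.16 for thick limb and 0.39 for ureteric genes, and transplant over E17.5 to 1.17 for connecting tubule, 1.13 for sodium, 1.81 for thick limb and 0.72 for ureteric genes. Thick limb genes gave 0.70 (P0 over E15.5) and 1.20 (transplant over P0) without other-segment members, 3.62 (over P0) and 4.13 (over E17.5) without the richest member, and over E17.5 3.88 with Scnn1b and 1.69 as a mean over cells. Ureteric genes gave −0.24 for P0 over E15.5 with at least 50 UMIs, and for transplant over P0 0.50 with Scnn1b, 0.33 as a mean over cells, 0.93 with at least 50 UMIs and −0.84 with the all-gene median removed. Stress genes gave −0.59 for transplant over P0 with Scnn1b. Of single genes, P0 over E15.5 turned to −0.49 for Aqp3, −0.83 for Atp1b1, −1.76 for Defb1 and −0.92 for Rhcg with thinned membership, and for Dqx1 to 0.54 with thinned membership, 0.98 with Scnn1b, 1.68 with at least 10 S100g UMIs and 0.65 without the richest member. Car15 over P0 turned to −0.13 without other-segment members. The cause was not tested. Depth limits Trpv5, Slc8a1 and Scnn1a, which rest on few UMIs.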
